A study of Mus musculus with 2 samples.

Results

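The neurotrophin genes and their receptors were described in DNase-seq data, which map DNA that the nuclease DNase I can cut because it is not packed into nucleosomes. The rule takes 7 genes by name and 5 are analysed here: the ligand genes Bdnf and Ntf3, the receptor tyrosine kinase genes Ntrk2 and Ntrk3, and the shared receptor gene Ngfr. They are 5 of 21938 protein-coding gene models of the annotation GENCODE M21 on mm10 (GRCm38). The rule names them by symbol and uses no measured value, but they were chosen with earlier results of these data known. Each gene was taken with 50 kb on each side, and every distinct annotated transcription start counted as a promoter of its own, which gave 41 starts.

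The libraries came from left cerebral cortex of male B6CASTF1/J mice aged 14 days, the first-generation hybrids of C57BL/6J females and CAST/EiJ males. There was 1 group with no treatment and no second condition, and it held 2 libraries. The label of replicate 1 names 3 males and that of replicate 2 names 1 male, so replicate 1 may be a pool. Both labels carry the same donor identifier, so an SD over the 2 libraries (n = 2 throughout) may not be a spread between animals.

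Replicate 1 held 150726 peaks and 380111 footprints, and replicate 2 held 155536 peaks and 379156 footprints. The value of a peak is the authors' peak signal, the highest cleavage density inside it after their scaling for depth; it does not depend on gene length. Its median over all peaks was 0.549 in replicate 1 and 0.663 in replicate 2. These are 116 and 108 times the smallest step between values, so if a step is 1 read, counting alone gives an error of 9.28% and 9.62% at the median peak. Where both libraries list a peak, replicate 2 was higher by a median of 0.25 on the log2 scale (SD 0.43, 118593 peaks). Tissue markers fitted the label: the genes of cortical excitatory neurons Neurod6, Tbr1, Neurod2 and Emx1 and both astrocyte genes (Slc1a3, Aldh1l1) had a peak at a start in both libraries. The cerebellar genes Gabra6 and Barhl1 had none in either, and the liver gene Alb had one of 0.275 in replicate 1 only.

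Neurotrophins are secreted growth factors that are made as longer precursors and cut to mature dimers. Mature BDNF, the product of Bdnf, signals through TrkB, the product of Ntrk2, and neurotrophin-3, the product of Ntf3, signals mainly through TrkC, the product of Ntrk3; the Ngfr product binds all neurotrophins and their precursors with lower selectivity. In cortex, BDNF and TrkB are known for their part in synaptic plasticity and in the maturation of inhibitory circuits. The Bdnf gene is a textbook case of many alternative promoters, each spliced to the same protein-coding exon and used to a different degree by neural activity and cell type.

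Of the 41 starts, 19 had a peak within 200 bp in both libraries, 4 had one in a single library and 18 had none. Among all 93513 distinct starts of protein-coding genes the share with a peak in both was 47.9%, so the members' 19 of 41 lay near the background. At the level of genes, 4 of the 5 members had at least 1 such start, and Ntf3 was the exception. Of the 21938 genes, 62.6% had a peak at a start in both libraries, counted even where the start differed between libraries. Strength differed more than presence. The strongest peak at any start measured 5.51 and 5.83 for Ntrk2 (mean 5.67 ± 0.224 SD), 1.48 and 2.60 for Ntrk3 (2.04 ± 0.797), 1.05 and 1.54 for Bdnf (1.29 ± 0.346) and 1.03 and 0.891 for Ngfr (0.962 ± 0.100), replicate 1 first. For Ntrk2 and Ntrk3 the strongest peak was at a different start in each library, so these means and SDs describe the gene's highest value and no single peak; the values of each peak are given with the gene. Ntrk3 was above Bdnf in each library, although their ranges over the 2 libraries overlapped. Ngfr was below Bdnf in each, narrowly in replicate 1 (1.03 against 1.05) and by more in replicate 2 (0.891 against 1.54). Both values of Ntrk2 lay above all others. Among the 13727 genes with a peak at a start in both libraries, whose medians were 3.65 and 4.10, Ntrk2 stood at the 65.9th percentile, Ntrk3 at the 30.0th, Bdnf at the 20.3rd and Ngfr at the 14.7th. In bulk tissue, a site that is open in few cells and one that is weakly open in many cannot be told apart.

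**Figure D1:**
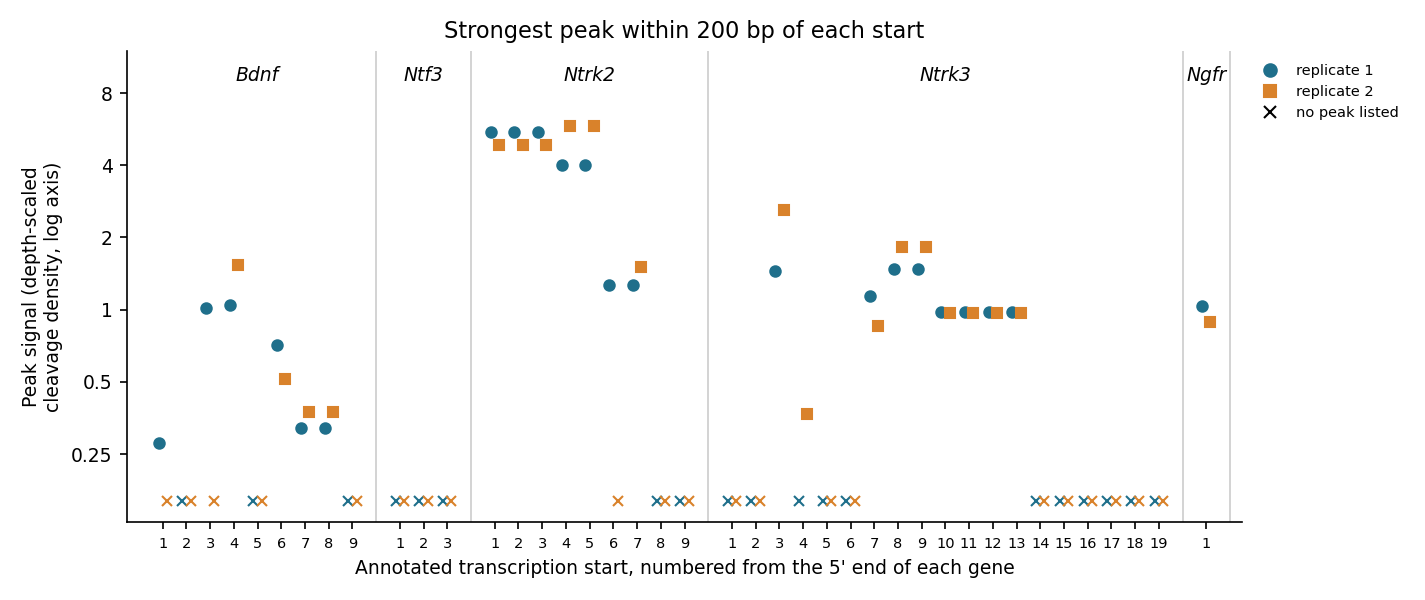
Signal of the strongest peak within 200 bp of each of the 41 annotated starts, in replicate 1 (circles) and replicate 2 (squares), on a log axis; crosses at the bottom mark starts with no listed peak. Starts 1 to 5 of Ntrk2 sit between 3.99 and 5.83, above every other start of the 5 genes, and all 3 starts of Ntf3 have no peak.

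Peaks lay mostly at starts rich in CpG. The CpG dinucleotides within 200 bp on either side were counted for each start. Of 20 member starts with 15 or more, 16 had a peak in both libraries, against 86.3% of all starts in that class. Of 11 with 5 to 14, 3 did (18.7% of all starts), and of 10 with fewer than 5, none did (4.63%). The 3 open starts of the middle class were starts 7 and 8 of Bdnf and start 3 of Ntrk3. The 4 CpG-rich starts without a peak in both libraries were start 1 of Bdnf (16 CpG), starts 1 and 3 of Ntf3 (17 and 27) and start 6 of Ntrk2 (20). Within this class the share over all starts was 61.4% at 15 to 19 CpG, 84.2% at 20 to 29 and 91.8% at 40 or more.

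Bdnf lies on the plus strand of chromosome 2 (chr2:109674700-109727007, 52.3 kb) and has 11 annotated transcripts from 9 starts, which encode precursors of 249 residues apart from 1 of 257 and 1 of 289. The starts fall in a first group (starts 1 to 3, within 2.33 kb), a middle group (starts 4 to 8, 17.7 to 19.8 kb from start 1) and a single last start at 34.7 kb. Neither of the 2 strongest sites of the gene lay at an annotated start. The sequences of both, and of the stretch just before start 4, the start with the strongest peak, are given because the description of Bdnf turns on them. Letters are those of the GRCm38 reference, 5′ to 3′ on the strand of the gene, and capitals mark bases inside footprints of both libraries, which are short stretches that are cut less than their surroundings, as DNA covered by a bound protein is.
Bdnf intronic site after start 3, chr2:109678161-109678400, plus strand: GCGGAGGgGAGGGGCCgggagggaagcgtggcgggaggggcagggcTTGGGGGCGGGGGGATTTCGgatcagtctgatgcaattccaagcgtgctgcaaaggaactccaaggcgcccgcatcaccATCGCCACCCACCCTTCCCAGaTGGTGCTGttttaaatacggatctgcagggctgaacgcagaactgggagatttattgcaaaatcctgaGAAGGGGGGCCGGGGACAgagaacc
Bdnf stretch before start 4, chr2:109692321-109692435, plus strand: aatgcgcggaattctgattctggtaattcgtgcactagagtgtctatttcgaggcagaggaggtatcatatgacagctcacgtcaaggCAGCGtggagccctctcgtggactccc
Bdnf intronic site after start 8, chr2:109694921-109695120, plus strand: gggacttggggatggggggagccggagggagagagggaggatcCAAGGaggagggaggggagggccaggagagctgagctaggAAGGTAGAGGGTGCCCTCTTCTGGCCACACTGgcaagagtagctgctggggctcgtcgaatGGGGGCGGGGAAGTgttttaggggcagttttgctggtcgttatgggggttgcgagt

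The strongest Bdnf site, centred 1228 bp after start 3 and intronic in the transcripts from starts 1 to 3, had a signal of 3.08 in replicate 1 and 5.18 in replicate 2 (mean 4.13 ± 1.49). The next, 551 bp after start 8, measured 2.86 and 2.58 (2.72 ± 0.198). Both exceeded the strongest peak at a start in each library. Such a gene-body peak above all peaks at starts was found in 16.7% of the 13727 genes, and of the 4 members with an open start Bdnf and Ngfr had one. In the printed site after start 3, a GC box (GGGCGG, the word bound by SP factors) begins at base 51 and lies wholly in a shared footprint, and the bHLH word CAGATGG, of a kind bound by neurogenic factors, begins at base 144 with 6 of 7 bases in one. The site after start 8 holds a GC box at base 147, also wholly inside a shared footprint. It also holds, at bases 94 to 107, a match with 1 mismatch to the consensus of CTCF, a factor that organises chromatin loops, and all 14 of its bases lie in a footprint of both libraries.

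Start 4 had the strongest peak at a Bdnf start, 1.05 and 1.54 (1.29 ± 0.346). Its upstream stretch holds CGTCA, the reverse complement of TGACG, at base 81. TGACG is the half-site, or first 5 bases, of the cyclic AMP response element (CRE) TGACGTCA that CREB binds, and the stretch does not hold the whole word. Start 4 is the one best known for induction by neural activity. None of the 5 bases lies in a shared footprint. The only 5 bases of the stretch that do follow the half-site shortly, in capitals above. A match with 2 mismatches to the CTCF consensus covers bases 96 to 109, and 0 of its 14 bases lie in a shared footprint. The peak at start 4 held 2 footprints in replicate 1 and 3 in replicate 2, and 1 of the former met one of the latter. Peaks with a signal of 1 to 2 held a median of 3 in each library.

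The other Bdnf starts had lower values or no peak. Start 6, the richest in CpG with 35, had peaks of 0.715 and 0.516. Starts 7 and 8 share a peak of 0.322 and 0.375, on the stricter list in neither library. Starts 1 and 3 had a peak within 200 bp in replicate 1 only, of 0.279 and 1.02. For start 3 this depended on where the peak edge was drawn: the same site was listed in replicate 2 at 1.17, beginning 249 bp from the start, and its mean, 1.10 ± 0.110, was close to that of start 4. Starts 2, 5 and 9 had no peak in either library. At starts 2 and 5 the deposited false discovery rates nevertheless passed the 0.05 limit. At start 2 the best was 0.0403 in replicate 1, over 10 bp, and 0.00931 in replicate 2, over 74 bp; at start 5 it was 0.00666 in replicate 1, over 90 bp, and replicate 2 had no such interval. Start 9, with 2 CpG, had no such interval in either library.

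**Figure D2:**
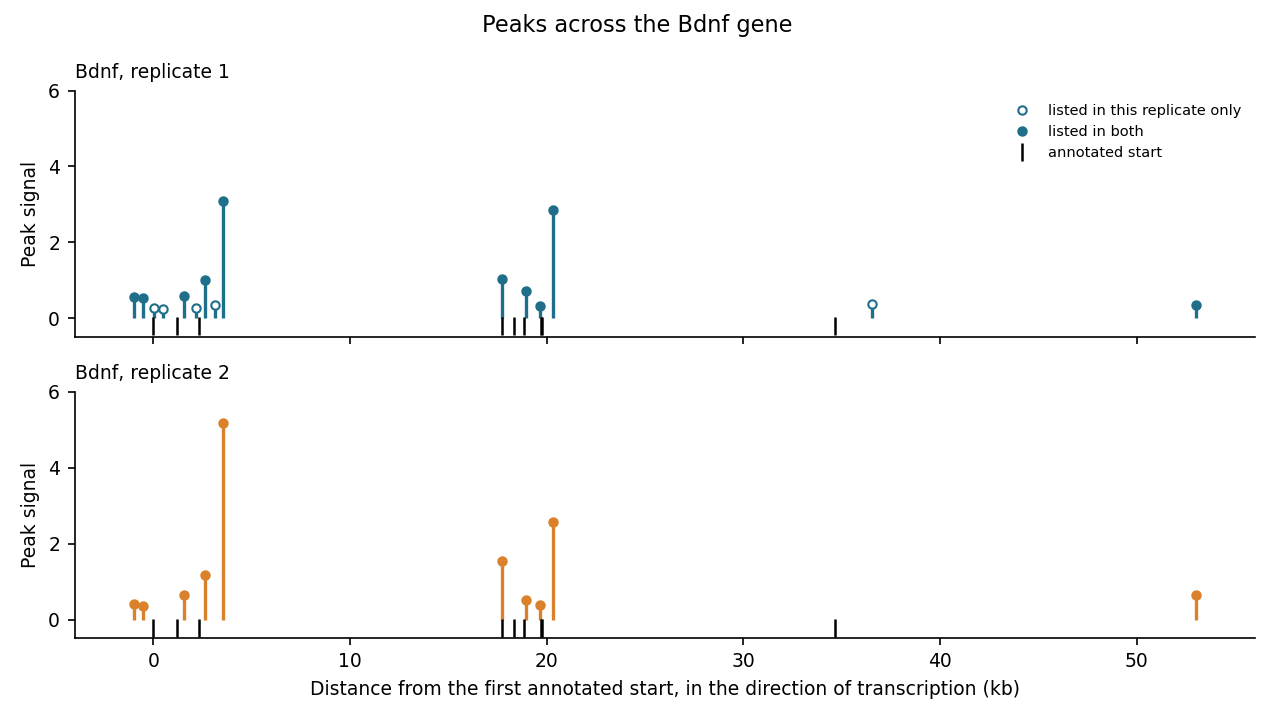
Peaks across Bdnf and its near flanks in replicate 1 (top) and replicate 2 (bottom), by distance from start 1 along the direction of transcription; stems give peak signal, open circles are sites listed in 1 library only and ticks below the axis are the 9 annotated starts. The 2 tallest stems, 3.08 and 5.18 for the site after start 3 and 2.86 and 2.58 for the site after start 8, stand beside the groups of starts and not on them.

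Within Bdnf and its 50 kb flanks 15 sites were found after overlapping peaks of the 2 libraries were merged, 10 of them in both libraries and 5 in replicate 1 only. No site was listed in replicate 2 only. Replicate 1 listed 17 peaks here and replicate 2 listed 12, and at starts 7 and 3 separate peaks. Beyond the last start only 2 sites were found: 1 of 0.379 in replicate 1 alone, and 1 just past the annotated 3′ end with 0.355 and 0.645. The share of starts with a peak in both libraries was 44.4% for Bdnf (4 of 9; 8 of 9 with a window of 500 bp and 2 of 9 on the stricter peak list); among 2384 genes with at least 9 starts and 1 or more open, the median was 53.3% (quartiles 36.4% and 66.7%).

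Ntf3 lies on the minus strand of chromosome 6 (chr6:126101412-126166910, 65.5 kb) with 3 transcripts and 3 starts, which have 17, 13 and 27 CpG. None of the 3 had a peak within 200 bp in either library. At starts 1 and 2 the deposited intervals held no position with a false discovery rate up to 0.05 in either library, and at start 3 they held 47 bp in replicate 1, with 0.0239 at best. Among 14005 genes with at least 1 start of 15 or more CpG, 7.15% had no peak at any start in either library. This state was thus uncommon in that class as a whole and not particular to Ntf3. The class includes starts with 40 CpG or more, of which 91.8% had a peak in both libraries. In the ranges of the Ntf3 starts the shares were lower: 30.9% at 10 to 14 CpG, 61.4% at 15 to 19 and 84.2% at 20 to 29. The nearest peak lay 991 bp upstream of start 1 and measured 1.26 and 1.02.

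Of the 11 sites of Ntf3 and its flanks 8 were in both libraries. The strongest by mean was in the 3′ flank, with 1.18 and 1.54 (1.36 ± 0.249). Those next in order lay in intron 2 of the 3-exon transcript, with 1.12 and 1.21 (1.16 ± 0.0654) at 12.4 kb from start 1 and 1.03 and 1.28 (1.15 ± 0.173) at 3.38 kb. No site of Ntf3 exceeded 1.54 in either library, less than the strongest site of each other member in both. The intronic site at 12.4 kb is shown because footprints of both libraries lie on CTCF-like letters.
Ntf3 intron 2 site, chr6:126154421-126154600, minus strand: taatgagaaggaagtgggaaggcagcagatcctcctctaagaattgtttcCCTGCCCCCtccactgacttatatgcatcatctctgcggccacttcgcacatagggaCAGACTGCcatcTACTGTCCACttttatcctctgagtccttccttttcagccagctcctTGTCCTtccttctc
The CTCF core word AGGNGGCAG lies on the reverse strand at base 52, with 8 of 9 bases in a shared footprint. A match to the longer CTCF consensus with 1 mismatch covers bases 112 to 125, with 10 of 14 in shared footprints.

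Ntrk2 lies on the plus strand of chromosome 13 (chr13:58806569-59133970, 327 kb) and has 10 transcripts from 9 starts. The annotated products include the full-length receptor of 821 residues with its kinase domain and truncated receptors of 476 residues, known to lack the kinase and to be abundant in astrocytes. Starts 1 to 3 lie within 0.07 kb and share a peak of 5.51 and 4.88 (5.19 ± 0.449), and starts 4 and 5 share one of 3.99 and 5.83 (4.91 ± 1.30). Replicate 1 was higher at the first of these peaks and replicate 2 at the second. Both the 821-residue and the 476-residue forms have a start at or near these peaks: start 1 and start 4 for the former, start 3 for a shorter one. Start 7 had 1.27 and 1.50, start 6 had a peak within 200 bp in replicate 1 only, and starts 8 and 9, with 4 CpG each and transcripts that encode no full receptor, had none.

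The stretch before start 1 and 2 of the strongest intronic sites are shown because they carry the densest shared footprints and the clearest repeated word of the gene.
Ntrk2 stretch before start 1, chr13:58806421-58806568, plus strand: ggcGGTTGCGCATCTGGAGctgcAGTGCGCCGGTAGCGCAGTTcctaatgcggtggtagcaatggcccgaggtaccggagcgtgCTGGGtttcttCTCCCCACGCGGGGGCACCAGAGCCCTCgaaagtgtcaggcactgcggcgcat
Ntrk2 intron 13 site, chr13:59011581-59011800, plus strand: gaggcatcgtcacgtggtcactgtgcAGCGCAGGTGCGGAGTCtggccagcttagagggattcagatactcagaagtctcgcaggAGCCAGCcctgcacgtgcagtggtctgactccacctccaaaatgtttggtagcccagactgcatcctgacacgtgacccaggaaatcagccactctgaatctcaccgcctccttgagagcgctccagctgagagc
Ntrk2 intron 16 site, chr13:59092781-59092960, plus strand: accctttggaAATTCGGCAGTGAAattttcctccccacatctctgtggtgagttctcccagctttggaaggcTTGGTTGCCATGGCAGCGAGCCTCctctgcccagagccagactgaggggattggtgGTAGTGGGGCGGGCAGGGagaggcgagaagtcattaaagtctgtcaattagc
Of the 148 bases before start 1, 69 lie in footprints of both libraries. Each library called 6 footprints in this peak, and all 6 of replicate 1 met one of replicate 2; in replicate 1 peaks of 4 or more held a median of 4 footprints. The stretch includes a match with 2 mismatches to the CTCF consensus at bases 100 to 113, wholly in a shared footprint. The intron 13 site holds the E-box CACGTG, the word of USF and related factors, 3 times, at bases 11, 97 and 155, none of it in a shared footprint. The intron 16 site holds a match with 1 mismatch to the consensus of RFX factors at bases 76 to 89, wholly in a shared footprint. With up to 2 mismatches, as the search allowed, RFX matches were in 3 of the 100 member sites found in both libraries, beside 3.04% of all peaks of replicate 1. The only member site with a match without a mismatch was a weak one in the 3′ flank of Ntrk3, with 0.464 and 0.399.

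The 3 strongest sites of Ntrk2 over 1000 bp from any start were intronic. The intron 16 site had 2.39 and 4.28 (3.33 ± 1.34), and the intron 13 site had 1.95 and 3.33 (2.64 ± 0.978). A further site in intron 16, 267 kb from start 1, had 3.77 and 3.98 (3.88 ± 0.146). The spread between libraries was wide at the first 2 and narrow at the last. The strongest site of the whole interval, with 5.94 and 8.26 (7.10 ± 1.64), lay in the 3′ flank at 339 kb, at the starts of the long noncoding RNA genes Gm34307 and Gm34354, so it is a start-site peak of other genes.

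Sites found in both libraries were spread unevenly along Ntrk2. Between start 1 and the end of the 476-residue transcripts (130.5 kb) 17 sites were found, 12 in both libraries, or 9.20 shared sites per 100 kb. The peak shared by starts 1 to 3, with a mean of 5.19, is not among them, since by its centre it counted in the 5′ flank. In the remaining 197 kb, which belongs to the kinase forms and, in its first stretch, to 1 transcript that encodes no full receptor, 23 sites were found, 9 in both, or 4.57 per 100 kb. The shared sites there had the higher median signal, 1.11 against 0.704. Of the 23 sites, 8 were in replicate 1 only and 6 in replicate 2 only, beside 2 and 3 of the 17 in the first stretch. Over all 5 genes and flanks the counts were 27 and 34 of 161 sites. Among all peaks, 78.7% of those of replicate 1 and 76.3% of those of replicate 2 met a peak of the other library.

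Ntrk3 lies on the minus strand of chromosome 7 (chr7:78175959-78738012, 562 kb) and has 20 transcripts from 19 starts. The forms that encode a receptor, of 825, 839 and 864 residues with the kinase and of 612 residues without it, all begin in a cluster of CpG-rich starts, numbers 7 to 13, at 159 to 160.2 kb from start 1. All 7 starts of the cluster had a peak in both libraries, with means from 0.970 to 1.65. The highest, at starts 8 and 9, was 1.48 and 1.83 (1.65 ± 0.250). Starts 10 to 13 share a peak of 0.976 and 0.964 (0.970 ± 0.00790), which hardly differed between libraries.

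The highest mean of a Ntrk3 start was outside that cluster. Start 3, at 19.8 kb from start 1, begins a noncoding transcript, has 6 CpG and had 1.45 and 2.60 (2.03 ± 0.814). In replicate 1 it was lower than starts 8 and 9, which had 1.48, and in replicate 2 it was higher. Of the other 11 starts, start 4 had a peak of 0.369 in replicate 2 only and 10 had none in either library; they have 1 to 8 CpG each. The share of Ntrk3 starts open in both libraries was 42.1%.

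The peak before start 3 and the strongest site of intron 1 are shown, the former because it has the highest mean of the Ntrk3 starts with only 6 CpG and the latter for its footprint.
Ntrk3 stretch before start 3, chr7:78718341-78718480, minus strand: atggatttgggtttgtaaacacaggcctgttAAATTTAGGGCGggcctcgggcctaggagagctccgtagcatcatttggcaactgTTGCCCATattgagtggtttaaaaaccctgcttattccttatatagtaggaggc
Ntrk3 intron 1 site, chr7:78569001-78569180, minus strand: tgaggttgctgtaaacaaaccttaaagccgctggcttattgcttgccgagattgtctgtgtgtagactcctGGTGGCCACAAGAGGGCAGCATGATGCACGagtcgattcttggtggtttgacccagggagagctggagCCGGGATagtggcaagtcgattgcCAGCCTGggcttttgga
The stretch before start 3 holds a GC box at base 39, with 5 of 6 bases in a shared footprint, and 20 of its 140 bases lie in shared footprints. The intron 1 site, which measured 2.01 and 1.62 (1.81 ± 0.277), holds a match with 1 mismatch to the CTCF consensus at bases 77 to 90, wholly inside a shared footprint. A site 142 kb from start 1, upstream of the receptor starts, had 1.79 and 1.87 (1.83 ± 0.0590) and a match with 2 mismatches that also lies wholly inside one.

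Ntrk3 and its flanks had 74 sites, the most of the 5 genes, of which 44 were in both libraries, 9 in replicate 1 only and 21 in replicate 2 only. Per 100 kb this was 8.31 peaks in replicate 1 and 10.1 in replicate 2, beside medians of 8.64 and 8.70 over all genes. The 159 kb upstream of start 7 held 18 shared sites, or 11.3 per 100 kb. The 278 kb from start 7 to the end of the 612-residue form held 19, or 6.83 per 100 kb, and the last 125 kb held 3, or 2.41 per 100 kb. Shared sites were thus sparser in each successive stretch, with cuts picked after the values were seen, but not steadily so along the gene. The peak over start 7 counted as upstream by its centre. Within the upstream stretch, no shared site lay between 76.9 and 139.6 kb from start 1. The strongest site of the interval, 5.42 and 4.48 (4.95 ± 0.660), lay upstream of start 1, at a position of -28.5 kb relative to it, where the nearest protein-coding start is that of Mrpl46, a mitochondrial ribosomal protein gene.

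**Figure D3:**
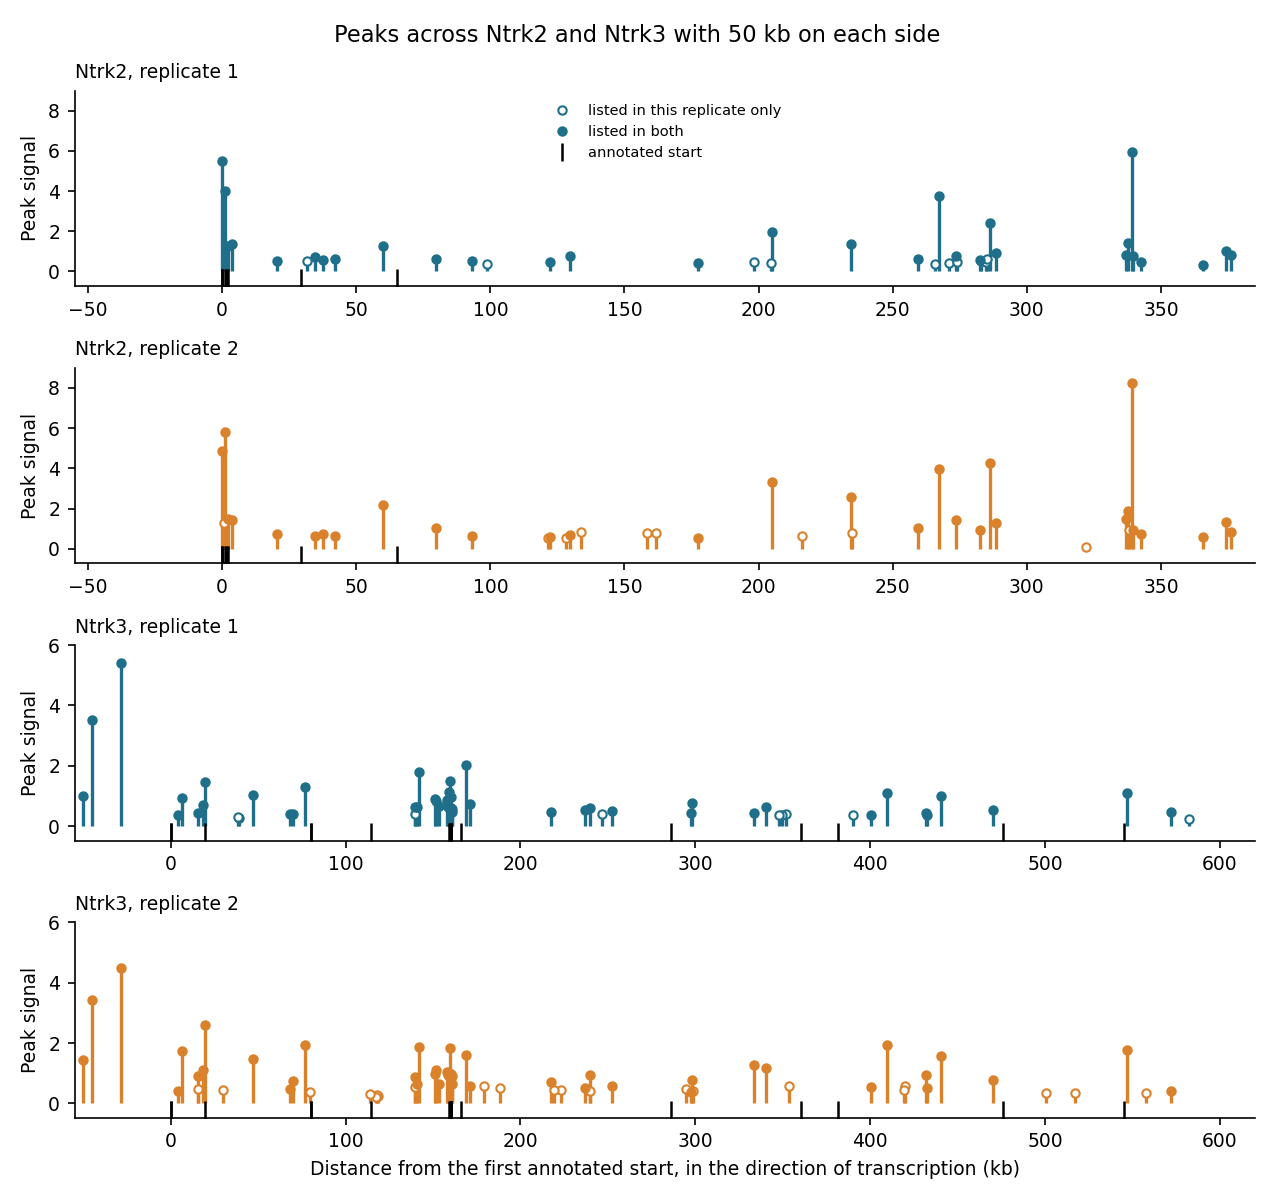
Peaks across Ntrk2 (upper 2 panels) and Ntrk3 (lower 2 panels) with 50 kb on each side, by distance from the first annotated start along the direction of transcription; stems give peak signal in each library, open circles are sites of 1 library only and ticks are annotated starts. In Ntrk2 the tall stems stand at the starts near 0, in the distal introns and in the 3′ flank (5.94 and 8.26); in Ntrk3 the peaks crowd around the receptor starts near 160 kb and the tallest (5.42 and 4.48) lies upstream of start 1.

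Ngfr lies on the minus strand of chromosome 11 (chr11:95568818-95587735, 18.9 kb) and has 1 transcript and 1 start, with 34 CpG. The peak at this start had 1.03 and 0.891 (0.962 ± 0.100), the lowest promoter value of the 4 members that had one. The strongest site inside the gene, in intron 1 at 1325 bp from the start, had 2.70 and 1.84 (2.27 ± 0.609) and exceeded the promoter peak in both libraries. The 3 strongest sites of the interval lay in the 3′ flank, with 4.67 and 3.13 (3.90 ± 1.09), 3.67 and 2.31 (2.99 ± 0.959) and 2.69 and 2.44 (2.57 ± 0.181). The nearest protein-coding start to each was that of Nxph3, a neurexophilin gene, and not that of Ngfr. The first 2 are shown for their CTCF matches without a mismatch.
Ngfr 3′ flank site, chr11:95520821-95520980, minus strand: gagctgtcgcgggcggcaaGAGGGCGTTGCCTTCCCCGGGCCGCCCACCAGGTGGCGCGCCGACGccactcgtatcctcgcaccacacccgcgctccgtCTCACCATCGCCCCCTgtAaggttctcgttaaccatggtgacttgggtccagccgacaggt
Ngfr 3′ flank site, chr11:95533861-95534060, minus strand: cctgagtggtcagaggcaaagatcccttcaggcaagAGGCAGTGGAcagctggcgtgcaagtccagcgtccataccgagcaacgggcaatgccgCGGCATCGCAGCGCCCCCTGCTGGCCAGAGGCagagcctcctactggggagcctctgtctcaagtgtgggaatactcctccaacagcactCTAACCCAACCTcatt
The matches cover bases 45 to 58 of the former and 105 to 118 of the latter, and all 14 bases of each lie in footprints of both libraries.

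The CTCF consensus was searched, after the values had been seen, as a word of 14 letters with up to 2 mismatches on both strands, in the 200 bases around the centre of each site. It was present in 23.1% of all peaks of replicate 1. Over 1000 bp from any annotated start, the share was higher at higher signal. It was 13.4% of peaks under 0.5, 23.3% from 0.5 to 1, 45.0% from 1 to 2 and 73.5% of 2 or more. Of the 74 shared member sites at that distance 14 had a match (18.9%). Among all peaks of replicate 1 at that distance, shared or not, 24.7% had one. By signal in replicate 1, matches were found in 7 of 51 sites under 1, in 3 of 14 from 1 to 2 and in 4 of 9 of 2 or more. Those 4 were the intron 1 site of Ntrk3 and 3 sites of Ngfr, in intron 1 and in the 3′ flank. The Ntrk2 site in intron 16 at 267 kb, with 3.77 and 3.98, was counted without a match. It spans 560 bp, and outside the 200 bases searched it holds a match with 2 mismatches, with 12 of 14 bases in shared footprints. A match describes letters and shows no binding.

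Shorter words were counted in the same windows of the 100 shared member sites. The GC box GGGCGG was in 23 (15.1% of all peaks of replicate 1), TTGGCA, an NFI word, in 18 (16.9%), TGACG in 15 (11.8%) and CAGATGG in 10 (9.46%). The whole CRE, TGACGTCA, was in 1 (0.708%), the AP-1 word TGANTCA in 5 (9.16%), and the E-box CACGTG in 3 (4.77%). Neither the EGR word GCGNGGGCG (1.96%) nor the MEF2 word TAAAAATA (2.49%) was in any. The counts are small, both strands were searched, and TGACG is contained in TGACGTCA.

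Across the 5 genes and their flanks 161 sites were found, of which 100 were in both libraries, 27 in replicate 1 only and 34 in replicate 2 only; 115 were intronic and 126 lay over 1000 bp from any start. Replicate 1 listed 132 member peaks, and 105 of them met one of replicate 2 (79.5%, Wilson 95% interval 71.9 to 85.5), beside 78.7% of all its peaks. Replicate 2 listed 140, and 105 of them met one of replicate 1 (75.0%, 67.2 to 81.4), beside 76.3%. Member peaks were thus shared about as often as peaks at large. Shared sites were stronger, with medians of 0.751 and 0.955, than those of a single library, with 0.393 in replicate 1 and 0.479 in replicate 2.

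The ratio between libraries differed among the members. At the 30 shared sites of Ntrk2 replicate 2 was higher at 27, with a median log2 ratio of 0.44, and at the 44 of Ntrk3 it was higher at 34, with a median of 0.45. For Bdnf it was higher at 6 of 10 (median 0.15) and for Ntf3 at 5 of 8 (median 0.21). Ngfr went the other way: replicate 1 was higher at 6 of 8, with a median of -0.18, and none of the 8 reached the median ratio of all shared peaks, 0.25. With 1 library on each side these ratios have no replicate, neighbouring sites share their libraries, and the median over all member sites, 0.31 (SD 0.45), lay close to that of all peaks. The single largest ratio was 1.59, at an intron 11 site of Ntrk3 with 0.421 and 1.27.

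**Figure D4:**
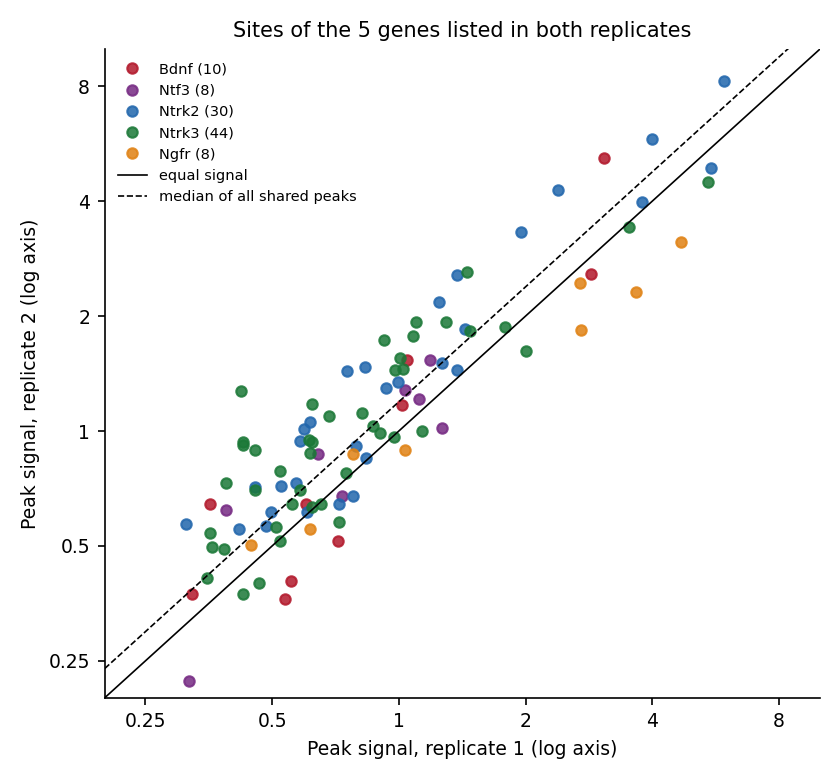
Signal in replicate 1 against replicate 2, both on log axes, at the 100 sites of the 5 genes and their flanks listed in both libraries, coloured by gene; the solid line marks equal signal and the dashed line the median ratio of all shared peaks. At 74 of the 100 sites replicate 2 is higher, and all 8 Ngfr sites lie below the dashed line.

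The machinery around these ligands and receptors was nearly all open at its starts. Of 34 further genes of the pathway, 33 (97.1%) had a peak at a start in both libraries and 1 in neither, with median strongest signals of 3.41 and 3.92. All genes together stood at 62.6% as given above, and medians over open genes were 3.65 and 4.10. Open starts are usual among genes with a start of 15 or more CpG: of 14005 such genes, 7.15% had no peak at any start in either library. The pathway list was chosen with earlier results of these data known and was not matched for CpG, so its share is a description only. Ligand processing and co-receptor genes had such a peak in 12 of 13 cases. The highest were Plat, whose product tPA activates the plasmin that cuts proBDNF (5.79 and 8.56, 7.17 ± 1.96), Kidins220, a scaffold of Trk receptors (5.22 and 6.52, 5.87 ± 0.922), and Sort1, which encodes the precursor-binding co-receptor sortilin (4.55 and 6.17, 5.36 ± 1.15). Mmp9, a protease gene, had no peak at any of its 4 starts.

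All 11 genes of adaptors and other signalling proteins behind the receptors had a peak at a start in both libraries. They were led by Grb2 (8.22 and 9.55, 8.89 ± 0.941), the adaptor that links receptors to Ras, Frs3 (7.10 and 7.22, 7.16 ± 0.0839), a docking protein of Trk receptors, and Shc1 (5.30 and 8.74, 7.02 ± 2.43), another adaptor. All 10 genes of transcription factors and cofactors described for the Bdnf gene also did, led by Creb1 (10.8 and 11.8, 11.3 ± 0.701), Srf (7.61 and 10.8, 9.20 ± 2.25) and Crtc1 (6.71 and 6.24, 6.48 ± 0.332), a CREB coactivator.

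**Figure D5:**
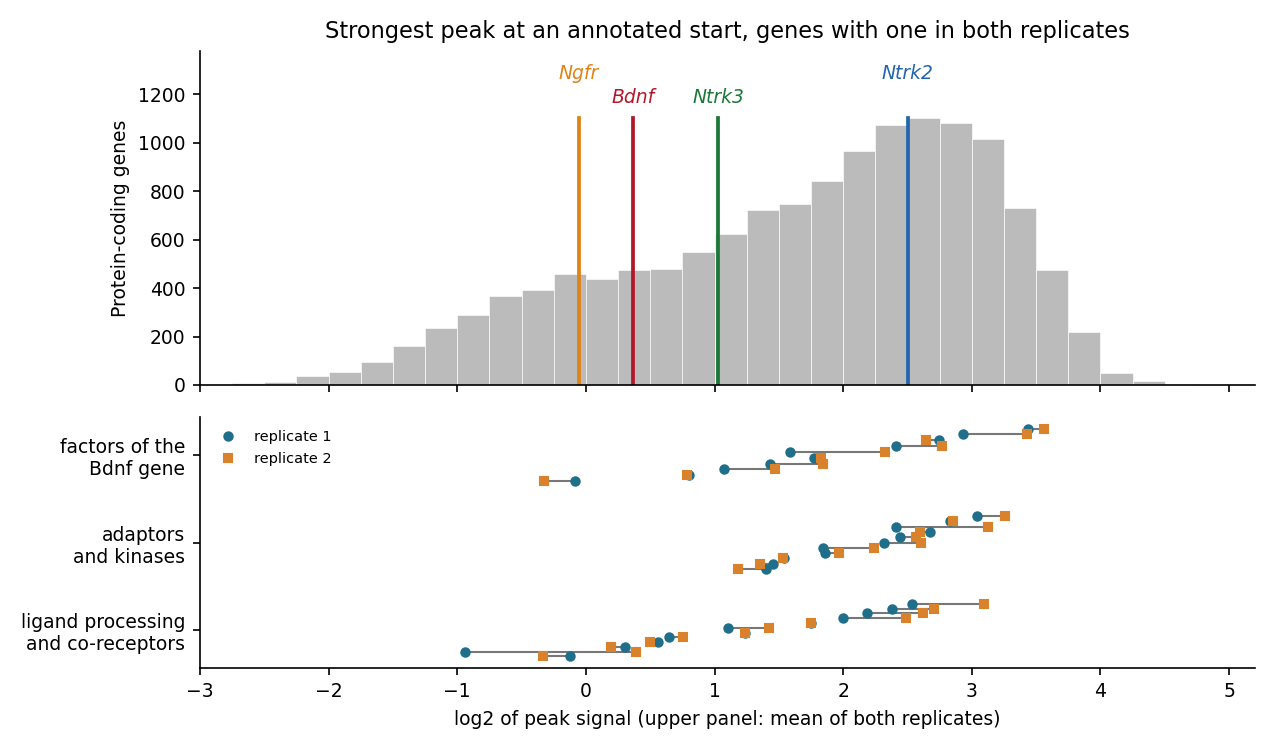
Upper panel: number of protein-coding genes by log2 of the strongest peak signal at any start (mean of both libraries, 13727 genes with a peak in both), with vertical lines at the 4 members that have one. Lower panel: the same quantity for each library in the 33 open pathway genes, where the list labelled adaptors and kinases holds no kinase gene. In the upper panel Ngfr, Bdnf and Ntrk3 lie in the lower part of the distribution (14.7th to 30.0th percentile) and Ntrk2 above its middle (65.9th).

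The genes most like each member were found by the distance over 4 measures, each scaled to an SD of 1 over the 13727 genes: separate peaks at starts, peaks in the gene and flanks, strongest signal at a start and gene length, as log2 values averaged over the 2 libraries. Nearest to Bdnf was Fgf9, a growth factor gene, at 0.447 SD, then Tsc22d3 and Ube2q2. Fgf9 had 16 peaks in each library in the gene and flanks and strongest values at a start of 1.78 and 1.39. Ntrk2 was nearest to Gas7 at 0.326 SD, then Pknox2 and Tnik, and Ntrk3 to Dpp6 at 0.469 SD, then Celf2 and Dst. For Ngfr the distances were shorter, with Pctp at 0.109 SD, Slc25a18 and Cd274. Bdnf and Ntrk3, with 7 and 3 and with 7 and 6 separate peaks at starts where the median gene had 1, lay farther from their nearest genes than Ngfr did. Ntf3 had no peak at a start and could not be ranked.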

How the data were processed

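DNase-seq of 2 libraries of 1 group was analysed. Per the file headers and accompanying notes, the authors made each file from that library's own mm10 alignments without pooling; which aligner and which callers were run is not given in the sources used here. Column 7 of the deposited peak lists is the authors' peak signal, scaled for depth. The deposited interval file gives a false discovery rate (q-value) up to 0.05. The score column of the deposited footprint files was not used. Reads of the CAST/EiJ allele count with those of C57BL/6J, and sequences are those of the RefSeq copy of the reference genome.

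The more inclusive of the 2 peak lists was used. A peak belonged to a start if it overlapped the 200 bp on either side; peaks of the libraries were shared if they overlapped by at least 1 bp. Members and lists were chosen with earlier results of these data known, so nothing was tested; values are descriptions. Named were all members and starts, the 3 strongest shared sites over 1000 bp from any start per gene, per pathway list the 3 strongest genes and those without a peak, and the 3 nearest genes by likeness. Other sites, and the CTCF and RFX consensus search, the segments and the ratios by gene, were picked after their values were seen. Overlaps, start calls and word searches were tested on simulated data. Alternatives were the window, the peak list, the starts counted, the false discovery rate (0.001), the flank, the overlap, the centring, the footprint rule and each library alone. Tools were Python 3.11.15, NumPy 2.4.6, pandas 2.3.3, SciPy 1.17.1 and pysam 0.24.0. A further gene of the tissue check is not reported here.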

Additional observations from a re-analysis of the deposited data

How the results depend on the processing

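Of 129 recomputed values, 103 counted as unchanged, 23 moved and 3 changed sign. Unchanged meant within the spread between libraries or within 1.5 times the count, except for the shares of member peaks. On the stricter list the share of replicate 1, 84.9%, lay inside its Wilson interval (71.9 to 85.5) and counted as unchanged. That of replicate 2, 84.0%, lay outside its own (67.2 to 81.4) and counted as moved. The cause was not tested beyond what each setting itself changes. With windows of 500 bp or 1000 bp, 8 Bdnf starts in place of 4 had a peak in both libraries, its strongest promoter signal was 2.72 in place of 1.29, since the intronic site after start 8 then counted, and its log2 ratio between libraries turned from 0.55 to -0.15. With 1000 bp, 1 start of Ntf3 had a peak. Centring on all shared peaks turned the ratio of Ntrk2 from 0.08 to -0.17; this ratio sets the highest peak of each library against the other, which are different peaks, whose own ratios were -0.18 and 0.55. On the stricter peak list 2 starts of Bdnf were open, the mean numbers of peaks in the gene and flanks were 9 for Bdnf, 6 for Ntf3, 21 for Ntrk2 and 31.5 for Ntrk3, and the share of member peaks of replicate 2 found in replicate 1 was 84.0%. Taking a gene model's 5′ end as its sole start, 0 starts of Bdnf, 1 of Ntrk2 and 0 of Ntrk3 were open. That count can only be 0 or 1, so a fall was fixed in advance for these genes, although they are among the 23 values that moved. With only protein-coding transcripts 5 starts of Ntrk3 were open. Without flanks Ntf3 had a mean of 6 peaks and Ngfr 4; with 10 kb flanks Ngfr had 4.5. Counting only footprints met in the other library left means of 3 for Bdnf (10 before), 8.5 for Ntrk3 (17) and 1 for Ngfr (2). With each library alone, footprints in promoter peaks ranged from 5 to 15 for Bdnf and from 1 to 3 for Ngfr. For Ntf3, windows of 200 bp gave no strongest signal or ratio to recompute. No paired analysis was possible because there was only 1 group. With 2 libraries that may share a donor, no spread between animals can be given; weak peaks, near the limit of either list, were the ones most often seen in a single library.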
